A study of Mus musculus with 10 samples.

Results

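Transforming growth factor beta (TGF-beta) reaches its receptors in the arterial wall only after it has been stored and released, and 10 genes of this pathway are described here. They are the ligands *Tgfb1*, *Tgfb2* and *Tgfb3*, the receptors *Tgfbr1*, *Tgfbr2* and *Tgfbr3*, and the latent TGF-beta binding proteins *Ltbp1*, *Ltbp2*, *Ltbp3* and *Ltbp4*. They were chosen by symbol, with earlier results of these data known, and are 10 of the 55453 symbols in the deposited table. All 10 had enough reads to be tested.

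The study asked which transcripts differ between young and old mouse aortae. Aortae were taken from 5 young (14.5 weeks) and 5 old (92.5 weeks) C57BL/6 mice, all male, and each aorta gave 1 library of poly(A) RNA. Both groups were untreated, and mice of both ages were killed at the same time. Each aorta was perfused with saline and cleaned of the surrounding fat before the whole vessel was extracted, so that a transcript level is a mean over smooth muscle, endothelium, fibroblasts and other cells. In such bulk tissue, fewer cells of a type and less RNA per cell cannot be told apart.

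Each TGF-beta ligand is cut from its own propeptide but stays bound to it, and the propeptide is disulfide-linked to a latent binding protein that anchors the complex to fibrillin microfibrils and other matrix. Integrins and proteases release the ligand, which binds the type II receptor (TGFBR2), and this kinase in turn activates the type I receptor (TGFBR1), which phosphorylates SMAD2 and SMAD3. In the aorta the pathway is known for its control of smooth muscle differentiation and of collagen and elastin synthesis, and mutations in several of its genes cause aneurysm syndromes in humans.

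On build GRCm38 with GENCODE M21, *Tgfb1* lies at chr7:25687002-25705077 and *Ltbp4* on the opposite strand of the same chromosome at chr7:27305136-27337692. *Tgfb2* lies at chr1:186622792-186705989 and *Tgfb3* at chr12:86056745-86079041, on the chromosome that also holds *Ltbp2* (chr12:84783212-84876532). The receptors lie at chr4:47353222-47414931 (*Tgfbr1*), chr9:116084293-116175360 (*Tgfbr2*) and chr5:107106570-107289629 (*Tgfbr3*), and the remaining binding proteins at chr17:75005568-75392512 (*Ltbp1*) and chr19:5740904-5758532 (*Ltbp3*). All 10 are annotated as protein coding.

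The sequences before the transcription starts of 3 of the genes are shown because these genes had the lowest adjusted p (*Tgfb1* and *Ltbp4*) and the widest spread between mice (*Tgfb2*). They come from RefSeq on build GRCm38.p6, in which 8 of the 10 genes had an entry. *Tgfb3* and *Tgfbr3* had none. Both strands were searched for the TATA box TATAAA, the cyclic AMP response element TGACGTCA, the E-box CACGTG, the GC box GGGCGG, the AP-1 site TGANTCA and the SMAD site CAGACA. Each sequence runs 5′ to 3′ on the strand of its gene and ends at the base before the annotated gene start, and capitals mark the motifs found. They lie at chr7:25686752-25687001 on the plus strand for *Tgfb1*, at chr1:186705990-186706239 on the minus strand for *Tgfb2* and at chr7:27337693-27337862 on the minus strand for *Ltbp4*.
Tgfb1: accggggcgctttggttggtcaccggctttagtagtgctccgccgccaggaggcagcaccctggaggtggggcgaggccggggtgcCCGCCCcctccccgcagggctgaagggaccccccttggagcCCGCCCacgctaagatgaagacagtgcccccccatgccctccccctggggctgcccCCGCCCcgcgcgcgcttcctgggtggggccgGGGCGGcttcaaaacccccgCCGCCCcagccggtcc
Tgfb2: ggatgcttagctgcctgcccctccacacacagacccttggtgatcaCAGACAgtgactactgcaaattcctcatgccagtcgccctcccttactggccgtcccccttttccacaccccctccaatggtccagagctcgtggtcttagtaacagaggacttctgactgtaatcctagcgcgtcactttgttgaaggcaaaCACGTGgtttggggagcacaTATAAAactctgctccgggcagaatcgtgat
Ltbp4: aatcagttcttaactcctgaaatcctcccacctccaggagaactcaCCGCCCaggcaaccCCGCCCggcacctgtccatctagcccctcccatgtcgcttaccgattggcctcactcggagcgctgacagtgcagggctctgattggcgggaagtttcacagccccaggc

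The *Tgfb1* sequence of 250 bases held 5 GC boxes and no TATA box, and 75.2% of its bases were G or C. The *Tgfb2* sequence of the same length held a TATA box 31 bases, an E-box 51 bases and a SMAD site 204 bases before the start, with 53.6% G or C. The *Ltbp4* sequence was limited to the 170 bases that precede both the RefSeq and the GENCODE start, and it held 2 GC boxes. Among the genes whose sequence is not printed, *Ltbp1* held a cyclic AMP response element 73 bases before its RefSeq start, *Tgfbr1* 2 GC boxes and *Ltbp2* 1 GC box, while *Tgfbr2* and *Ltbp3* held none of the 6 motifs. Over 32851 RefSeq windows of 250 bases, a GC box was present in 32.7%, a SMAD site in 17.1%, a TATA box in 12.4%, an AP-1 site in 6.75%, an E-box in 6.02% and a cyclic AMP response element in 1.55%. A match describes the letters and shows no binding, and the lack of a match says only that these letters are not in the window.

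The libraries held 19640401 to 22886153 counts on genes, and 14614 genes were tested. *Acta2* and *Myh11*, the defining genes of contractile smooth muscle, were abundant in both groups (17999 and 10716 CPM in young, 16163 and 10238 in old). CPM is the count of a gene as parts of its library total, after the totals were scaled by the TMM method of edgeR. The summed level of 10 macrophage markers was 557 to 650 CPM in young and 677 to 1166 in old aortae, so the groups did not overlap. Of these markers 5 rose (*Cd68*, *Adgre1*, *C1qa*, *C1qb* and *Fcgr1*) and none was at 0. The sum of 10 endothelial markers was 1050 to 1773 in young and 614 to 1259 in old aortae, and 1 of them fell (*Tek*). The median log2 fold change of these markers, old over young, was −0.58. Young replicate 1 had the highest sum of 7 adipocyte markers (949, against 285 in the lowest young aorta) and the lowest smooth muscle sum of its group, and old replicate 2 had the highest share of mitochondrial counts (11%, against 4.5% to 6.51% in the other 9 libraries) and the lowest smooth muscle and fibroblast sums of all.

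Levels of different genes are compared as CPM per kilobase of exon. On that scale *Ltbp1*, *Ltbp3*, *Ltbp4* and *Tgfb3* stood above the receptors, *Ltbp2* stood beside *Tgfbr3*, and *Tgfb1* stood lowest. In young aortae *Ltbp4* had 268 ± 8.56 CPM per kb (SD, n = 5), *Tgfb3* 110 ± 14.4, *Ltbp1* 99.8 ± 11.6 and *Ltbp3* 57.8 ± 3.11. The receptors followed with 28.9 ± 5.74 for *Tgfbr1*, 27.2 ± 1.31 for *Tgfbr2* and 18.4 ± 1.55 for *Tgfbr3*. *Tgfb2* lay among them at 21.5 ± 7.41, *Ltbp2* at 17.9 ± 1.6, and *Tgfb1* below all at 7.06 ± 0.41. Of neighbours in this order, *Tgfb3* and *Ltbp1*, *Tgfbr1* and *Tgfbr2*, *Tgfbr2* and *Tgfb2*, *Tgfb2* and *Tgfbr3*, and *Tgfbr3* and *Ltbp2* overlapped between aortae, and the other neighbours did not.

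In old aortae *Ltbp4* was again first (227 ± 15.8 CPM per kb) and *Tgfb1* last (8.76 ± 0.85). *Ltbp1* and *Tgfb3* had changed places, although their ranges overlapped in both groups, and *Tgfb2* (12.5 ± 3.14) stood below *Tgfbr3* and *Ltbp2*. In old aortae, but not in young ones, the low place of *Tgfb1* depended on the length used. Divided by the longest protein-coding transcript instead of all exons, an alternative added after the data were seen, *Tgfb1* reached 20.3 ± 1.96 CPM per kb in old aortae and *Tgfb2* 14.1 ± 3.56, and in young aortae *Ltbp1* (160.0) stood above *Tgfb3* (110).

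**Figure D1:**
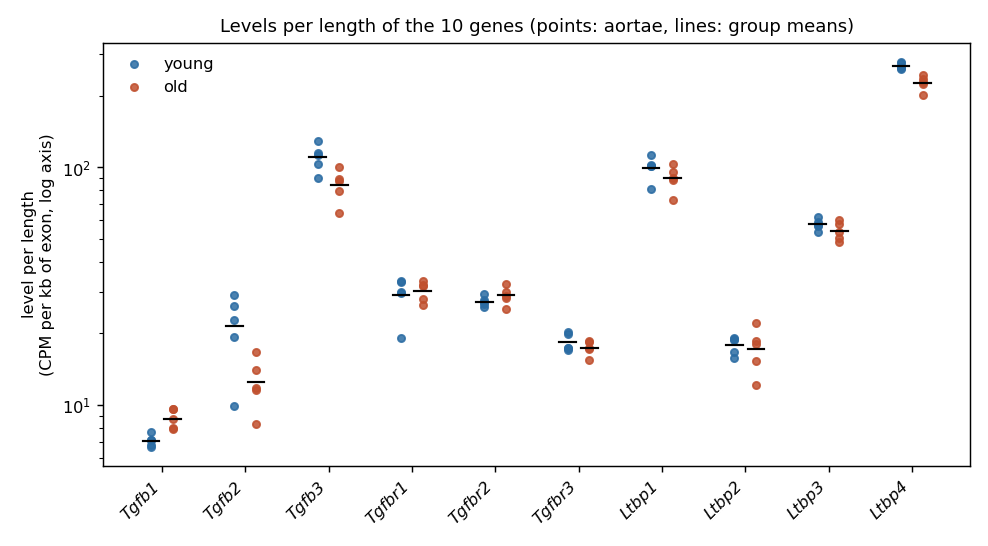
Level per length of each of the 10 genes, in CPM per kilobase of exon on a log axis, with a point for each of the 5 young and 5 old aortae and a line for each group mean. *Ltbp4* is highest in every aorta, and *Tgfb1* lies lowest in both group means, at 7.06 in young and 8.76 in old aortae.

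Per length, *Tgfb3* made up 79.7% of the ligand transcripts in young and 79.8% in old aortae. *Tgfb2* made up 15.1% and 11.7%, and *Tgfb1* 5.2% and 8.44%. By the length of the longest coding transcript the shares were 73.3% and 70.9% for *Tgfb3*, 15.7% and 11.8% for *Tgfb2*, and 11.1% and 17.3% for *Tgfb1*, which then stood above *Tgfb2* in old aortae. *Ltbp4* accounted for 60.5% of the latent binding protein transcripts in young and 58.5% in old aortae, *Ltbp1* for 22.4% and 23.2%, *Ltbp3* for 13% and 13.9%, and *Ltbp2* for 4.03% and 4.4%. The receptor transcripts were divided more evenly, with 38.5% and 39.4% for *Tgfbr1*, 36.7% and 37.8% for *Tgfbr2*, and 24.8% and 22.8% for *Tgfbr3*.

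Between the ages, *Tgfb1* rose and *Ltbp4* fell, and the other 8 genes were not called at an adjusted p below 0.05 (edgeR quasi-likelihood test, Benjamini-Hochberg adjustment over all 14614 genes tested). Of all genes tested, 1676 were called, with 947 in the upward and 729 in the downward direction. The share of members called, 20%, stands beside 11.5% of all genes, or 1 of 10 members beside 6.48% for higher calls and 1 of 10 beside 4.99% for lower calls. With 10 genes every call moves that share by as much as the gap, and nothing is read from it. *Tgfb1* and *Ltbp4* were also the 2 members whose age groups did not overlap, against 9.86% of all genes (5.62% with every old aorta above every young one, 4.24% with every old aorta below). The median log2 fold change was −0.09 over the members and 0.003 over all genes tested.

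**Figure D2:**
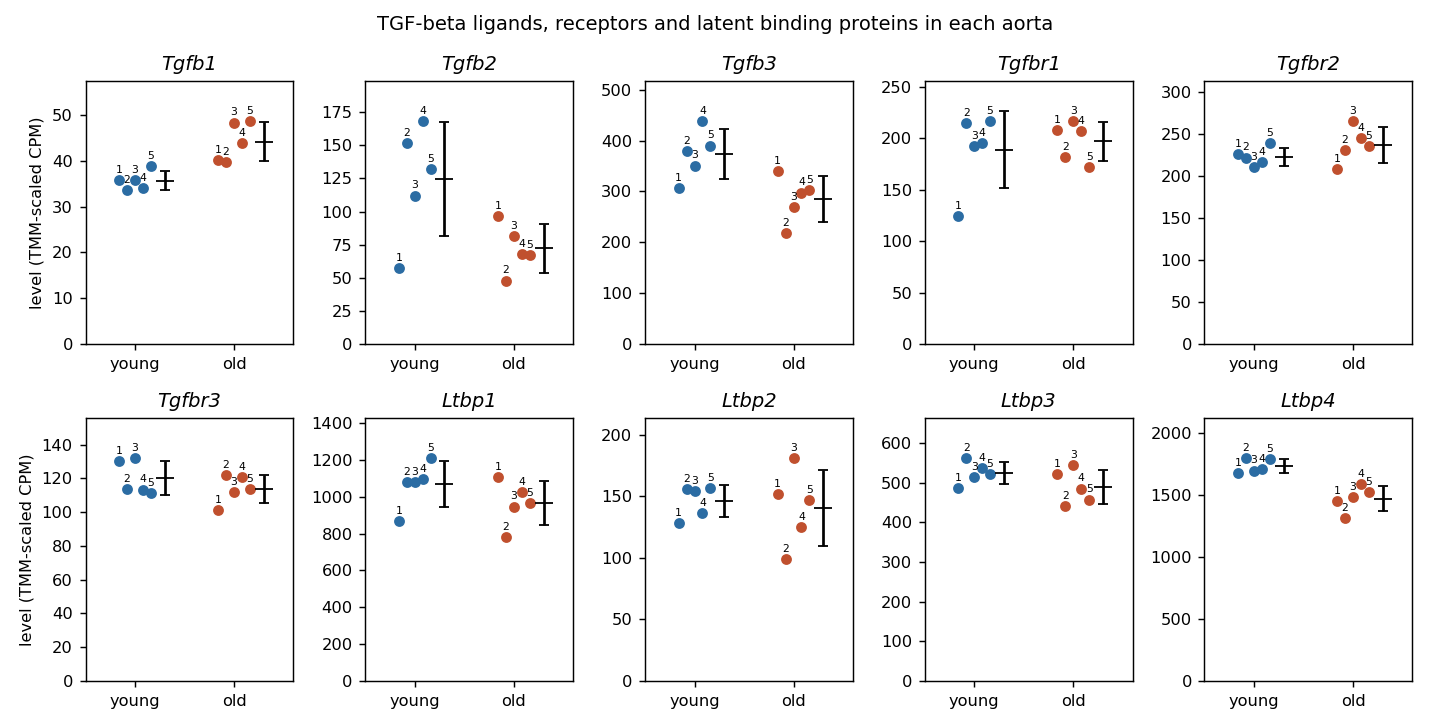
Level of each gene in each aorta, in TMM-scaled CPM on axes that start at 0, with points for the 5 young and 5 old aortae and bars for the mean ± SD of each group. The old aortae lie wholly above the young ones for *Tgfb1* (39.7 to 48.6 against 33.5 to 38.8) and wholly below them for *Ltbp4* (1311 to 1585 against 1678 to 1798), and the groups overlap for the other 8 genes.

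*Tgfb1* encodes the ligand that immune cells, platelets and many other cells make. Its level was 35.7, 33.5, 35.8, 34.1 and 38.8 CPM in young replicates 1 to 5 and 40.1, 39.7, 48.3, 43.9 and 48.6 in old replicates 1 to 5. Every old aorta was above every young one, but old replicate 2 exceeded the highest young aorta by less than 1 CPM. The mean rose from 35.6 ± 2.07 to 44.1 ± 4.27 CPM (SD, n = 5), a log2 fold change of 0.31 (SE 0.07, 95% interval 0.15 to 0.47, adjusted p = 0.0148). At the threshold of 0.05 the call held in all 22 alternative fits of this gene. Their log2 fold changes were 0.26 to 0.35 and their adjusted p 0.00413 to 0.0439. At a threshold of 0.01 the call was lost in the main edgeR fit.

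The higher *Tgfb1* came with the higher macrophage marker sum given above, in which the groups likewise did not overlap. The sum of 6 platelet and megakaryocyte markers was 13.3 to 20.3 CPM in young and 19.0 to 32.0 in old aortae, and 1 of the 4 tested rose (*Itga2b*). *Pf4* (mean 12.8 CPM in young and 18.5 in old, edgeR adjusted p = 0.0799) and *Ppbp* were higher in old aortae but not called. *Gp1ba* went the other way and was not called either (log2 fold change −1.40, edgeR adjusted p = 0.0605). Of 3 T cell markers tested, 2 rose, and the sum of the list was 1.08 to 3.53 CPM in young and 2.92 to 10.6 in old aortae. No marker of these 3 lists was at 0 in all libraries, and the part of these cells in the *Tgfb1* result was not tested.

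*Tgfb2* encodes the ligand known for its role in heart and vessel development. The young aortae held 57.3, 152, 112, 168 and 132 CPM and the old ones 96.8, 47.9, 81.5, 67.9 and 67.0. Young replicate 1 lay within the range of the old aortae, whereas the other 4 young aortae were above all old ones. With means of 124 ± 42.9 in young and 72.2 ± 18.2 CPM in old aortae, this gene had the largest fitted difference of the 10 (log2 fold change −0.78, SE 0.28, 95% interval −1.41 to −0.15) but was not called (adjusted p = 0.108). Its coefficients of variation, 34.5% in young and 25.2% in old aortae, were the highest of the 10 genes in both groups.

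Among the omissions of a single library, *Tgfb2* was called only without young replicate 1. Without that library the log2 fold change was −0.96 (SE 0.19) with an adjusted p of 0.0110 in edgeR. Without both that library and old replicate 2, an omission added after the data were seen, it was −0.85 (SE 0.15, adjusted p = 0.00715). Without any other single library the adjusted p was 0.0897 to 0.226. With all 10 libraries, *Tgfb2* was also called by limma-voom with sample quality weights (−0.90, SE 0.21, adjusted p = 0.00980), and in no other fit of all libraries. Young replicate 1 was also the aorta with the highest adipocyte marker sum, and the part of this in its low *Tgfb2* was not tested.

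*Tgfb3* encodes the most abundant of the ligand transcripts here. The young aortae held 307, 380.0, 351, 438 and 389.9 CPM and the old ones 339.9, 218, 269, 298 and 303. All old aortae but replicate 1 were below the lowest young one, which was again replicate 1. The means of 373 ± 48.6 and 285 ± 45.5 CPM gave a log2 fold change of −0.39 (SE 0.12, 95% interval −0.64 to −0.13), and the adjusted p of 0.0512 was just above the threshold.

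This value crossed the threshold under small changes in the analysis. *Tgfb3* was called by DESeq2 (adjusted p = 0.0147), by limma-voom (0.0485, or 0.0171 with sample quality weights) and with the size factors of DESeq2 (0.0483). The call was also made without young replicate 1 (0.0191) and without old replicate 1 (0.0259). In 15 of the 22 alternative fits *Tgfb3* stayed uncalled, with an adjusted p of up to 0.125. Its log2 fold change was −0.46 to −0.31 over the 10 omissions of a single library. Without young replicate 1 and old replicate 2 together, an omission added after the data were seen, it was −0.37 (SE 0.08, adjusted p = 0.0139). Antisense transcripts *Gm37804* and *Gm48008* overlap 12.4% of the exonic sequence of *Tgfb3*. The strand setting of the counting is not given in the sources used here, so reads of the overlapping parts cannot be assigned.

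The balance among the ligands was compared as log2 ratios of levels per length within each library, which do not depend on the scaling between libraries. The log2 ratio of *Tgfb1* to *Tgfb3* was −3.96 ± 0.22 in the 5 young and −3.26 ± 0.26 in the 5 old aortae (mean ± SD), a shift of 0.70 or 1.62-fold with no overlap between the groups. The exact two-sided permutation p was 0.00794, which is the smallest that 252 assignments can give, and it became 0.0952 after adjustment over the 12 ratios tested. The log2 ratio of *Tgfb1* to *Tgfb2* was −1.51 ± 0.64 in young aortae and −0.48 ± 0.38 in old ones, with overlap between the groups (exact permutation p = 0.0238, adjusted p = 0.143). That of *Tgfb2* to *Tgfb3* was −2.44 ± 0.44 and −2.78 ± 0.22 (exact permutation p = 0.159, adjusted p = 0.381). None of the ratios passed the adjusted threshold, which a lone pair at the smallest p could not reach.

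The receptors did not pass the test in either direction. *Tgfbr1*, the type I receptor kinase, was at 125, 215, 193, 195 and 217 CPM in young and at 208, 182, 217, 207 and 172 in old aortae. Young replicate 1 lay well below all 9 other aortae, which ranged from 172 to 217. The means were 189 ± 37.5 and 197 ± 19.2 CPM (log2 fold change 0.06, 95% interval −0.23 to 0.35, adjusted p = 0.820), and without young replicate 1 the sign turned (−0.06, adjusted p = 0.655).

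*Tgfbr2*, the type II receptor that binds the ligand first, was the steadiest of the receptors in young aortae. Its levels were 227, 222, 211, 217 and 239 CPM in young and 208, 231, 266, 245 and 236 in old aortae. The highest values were from old replicates 3 and 4 and the lowest from old replicate 1, so the old group spanned the young one. The log2 fold change was 0.09 (SE 0.07, 95% interval −0.06 to 0.23, adjusted p = 0.444), for means of 223 ± 10.7 and 237 ± 20.9 CPM.

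*Tgfbr3* encodes betaglycan, a co-receptor without kinase activity that presents the ligands, TGF-beta 2 in particular, to the type II receptor. The young aortae held 130.4, 114, 132, 113 and 111 CPM and the old ones 101, 122, 112, 121 and 114. The ranges overlapped for most of their width. Its log2 fold change was −0.08 (SE 0.07, 95% interval −0.23 to 0.07, adjusted p = 0.527), and the means were 120.2 ± 10.2 and 114 ± 8.32 CPM.

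The intervals leave room for changes of up to 0.35 on the log2 scale in *Tgfbr1*, and of up to 0.23 in either *Tgfbr2* or *Tgfbr3*. The ratios between receptors shifted by −0.003 for *Tgfbr1* to *Tgfbr2*, by 0.16 for *Tgfbr1* to *Tgfbr3* and by 0.16 for *Tgfbr2* to *Tgfbr3* (exact permutation p = 0.992, 0.532 and 0.127, adjusted p = 0.992, 0.798 and 0.381). The first of these is a difference of means only, since the ratio of *Tgfbr1* to *Tgfbr2* varied between −0.54 and 0.28 on the log2 scale among young aortae.

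All 4 latent binding proteins had negative fold changes, and *Ltbp4* was the member that passed the test. *Ltbp1*, whose product binds all the TGF-beta isoforms and links them to fibronectin and fibrillin, was at 867, 1082, 1081, 1096 and 1212 CPM in young and 1106, 783, 946, 1025 and 967 in old aortae. The lowest values in each group came from young replicate 1 and old replicate 2, and the groups overlapped. Its log2 fold change was −0.14 (SE 0.10, 95% interval −0.36 to 0.07, adjusted p = 0.396), for means of 1067 ± 124 and 965 ± 119.6 CPM.

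*Ltbp2* encodes the family member that is not known to bind TGF-beta and is a component of microfibrils. It was at 128, 156, 154, 136 and 157 CPM in young and 152, 98.9, 181, 125 and 147 in old aortae. Old aortae held both the highest and the lowest values, and the coefficient of variation was 8.95% in young and 21.9% in old. The log2 fold change of −0.05 (95% interval −0.35 to 0.24, adjusted p = 0.841) became 0.05 without old replicate 2. The antisense transcript *D030025P21Rik* overlaps 9.34% of its exonic sequence.

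*Ltbp3* encodes a binding protein that is secreted with TGF-beta and is known for its role in bone and in the thoracic aorta. Its levels were 486, 563, 515, 536 and 521 CPM in young and 522, 441, 544, 485 and 457 in old aortae. Old replicates 2, 4 and 5 lay below the lowest young aorta and the other old aortae within the young range. The means of 524 ± 28.2 and 490.0 ± 43.1 CPM gave a log2 fold change of −0.10 (SE 0.07, 95% interval −0.25 to 0.05, adjusted p = 0.410).

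*Ltbp4*, whose product binds TGF-beta 1 and takes part in elastic fibre assembly, had the highest level of the 10 genes. It was at 1678, 1798, 1695, 1708 and 1787 CPM in young and 1452, 1311, 1481, 1585 and 1521 in old aortae. Every old aorta was below every young one, and the young group had the smallest relative spread of any member in either group (coefficient of variation 3.19%). The mean fell from 1733 ± 55.3 to 1470.0 ± 102 CPM, 0.848 of the young level, with a log2 fold change of −0.24 (SE 0.07, 95% interval −0.38 to −0.10, adjusted p = 0.0320).

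DESeq2 gave *Ltbp4* an adjusted p of 0.000890, and in edgeR the call lay close to the threshold. It was lost without young replicate 2, 3, 4 or 5 (adjusted p = 0.0681, 0.0502, 0.0688 and 0.0639) and without old replicate 1, 3 or 5 (0.0550, 0.0515 and 0.0533), while the log2 fold change stayed between −0.27 and −0.20 in all 10 omissions. It was kept without young replicate 1 and old replicate 2 together (−0.21, adjusted p = 0.0308). The log2 ratios within the family shifted by −0.07 (*Ltbp1* to *Ltbp2*) to 0.16 (*Ltbp2* to *Ltbp4*), and the lowest exact permutation p of the 6 pairs was 0.0714, for *Ltbp3* to *Ltbp4* (−2.21 ± 0.05 in young and −2.08 ± 0.13 in old, adjusted p = 0.286).

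Among the cells that could supply *Ltbp4*, the sum of 10 smooth muscle markers was 39598 to 46743 CPM in young and 37363 to 45067 in old aortae, with 1 marker higher (*Smtn*) and none lower. The sum of 10 fibroblast markers was 5649 to 6472 and 4782 to 6501 CPM, with 1 marker higher (*Lum*) and 1 lower (*Pi16*), and none of either list was at 0. The ranges overlapped for both lists, and the part of cell composition in the *Ltbp4* result was not tested.

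**Figure D3:**
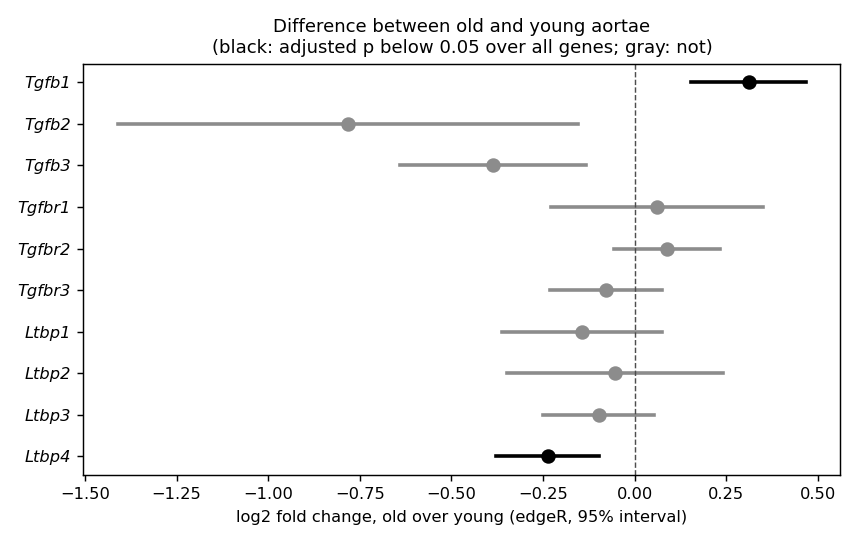
Log2 fold change of each gene, old over young aortae, with its 95% interval from the edgeR fit; black marks genes with an adjusted p below 0.05 and gray the others. The intervals of *Tgfb1* (0.15 to 0.47) and *Ltbp4* (−0.38 to −0.10) lie farthest from 0 relative to their width, and the widest interval is that of *Tgfb2* (−1.41 to −0.15).

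Differences between mice of the same age were shared by several of the genes. Young replicate 1 was the lowest of its group in 7 of the 10 genes (*Tgfb2*, *Tgfb3*, *Tgfbr1* and all 4 latent binding proteins), and old replicate 2 was the lowest of its group in 7 (all 3 ligands and all 4 latent binding proteins). How often each was the lowest over all genes tested was not counted, and nothing particular to these 10 genes is read from the counts. In young replicate 1 the deviation from the group mean on the log2 scale was −1.03 for *Tgfb2*, −0.57 for *Tgfbr1* and −0.29 for *Ltbp1*, but 0.01 for *Tgfb1* and 0.02 for *Tgfbr2*. In old replicate 2 it was −0.55 for *Tgfb2*, −0.48 for *Ltbp2*, −0.37 for *Tgfb3* and −0.29 for *Ltbp1*. These were the libraries with the lowest smooth muscle marker sums of their groups, as given above, and the part of cell composition in these deviations was not tested. With both left out, *Tgfb2* and *Tgfb3* were called in addition to *Tgfb1* and *Ltbp4*, and 2168 of all genes were. This omission was added after the data were seen. Both libraries held the lowest *Tgfb2* and *Tgfb3* of their groups, so nothing is read from the added calls.

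**Figure D4:**
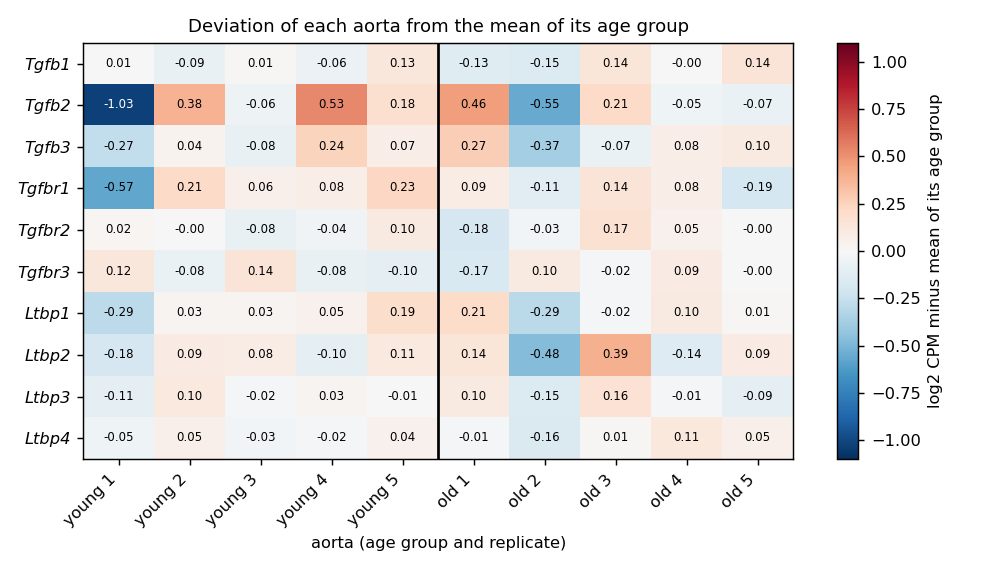
Difference of each aorta from the mean of its own age group, in log2 CPM, for the 10 genes in rows and the 10 aortae in columns; blue is below and red above the group mean. The largest deviation is that of *Tgfb2* in young replicate 1 (−1.03), and the columns of young replicate 1 and old replicate 2 are mostly blue.

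Over the 10 aortae, the genes whose centred log2 levels lay closest to those of *Tgfb1* were *Pkig*, *Ppp1r14b* and *Nt5dc2*, with root mean square differences of 0.04, 0.05 and 0.06 (median over all genes 0.25). Those closest to *Ltbp4* were *Slc10a7*, *2310022A10Rik* and *Tpst1*, with 0.05, 0.05 and 0.05 (median 0.22). The measure rewards a small spread as well as a shared pattern, and it was computed on the same 10 libraries as the comparison between ages.

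Other genes of the pathway were taken from 7 lists with 82 genes, of which 79 were tested. Of these, 3 rose and 17 fell, which is 25.3% called. Of all genes tested 11.5% were called, 6.48% higher and 4.99% lower. The median log2 fold change of the 79 genes was −0.12. The lists were written with earlier results of these data known, and the share is a description. Single lists are short, and their counts below are descriptions to be set beside the same shares. Without young replicate 1 and old replicate 2 the number called was 24.

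The matrix that holds the latent complex had the largest part of its list called, with 4 of 9 tested genes lower and none higher (median −0.31). *Mfap5*, a microfibril-associated protein, fell from 312 to 153 CPM (log2 fold change −1.03, SE 0.11, adjusted p = 9.75e-05). *Fbn1*, which encodes fibrillin-1, the microfibril protein that latent binding proteins attach to, fell from 674 to 455 CPM (−0.57, SE 0.10, adjusted p = 0.00296), and the groups did not overlap. *Mfap4*, which binds elastic fibres, fell from 791 to 409 CPM (−0.95, adjusted p = 0.00288), and *Eln*, which encodes elastin, from 5327 to 2751 (−0.95, adjusted p = 0.0131). The call on *Eln* was lost without young replicate 1 and old replicate 2 together (adjusted p = 0.0543) and without a filter on low counts (0.0530). *Fbn2* had too few reads to be tested.

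Of the genes listed as activators of latent TGF-beta, 2 of 13 tested rose and 1 fell (median −0.08), and *Itgb6* and *Plg* had too few reads. *Itgb3*, a beta subunit that pairs with the alpha V integrin, fell from 222 to 166 CPM (log2 fold change −0.42, SE 0.09, adjusted p = 0.00898). *Plat*, the tissue-type plasminogen activator, rose from 110.3 to 148 CPM (0.42, SE 0.08, adjusted p = 0.00350), and the groups did not overlap for either gene. *Mmp9*, a gelatinase, rose from 4.55 to 7.55 CPM (0.73, SE 0.22, adjusted p = 0.0465), and this call was kept only without young replicate 3 or old replicate 2 when single libraries were left out (adjusted p up to 0.106 in the other 8 omissions).

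Among other receptors of the TGF-beta superfamily, 2 of 8 fell and none rose (median −0.19). *Bambi*, a decoy receptor that lacks the kinase domain and dampens signalling, fell from 45 to 24.2 CPM (log2 fold change −0.89, SE 0.14, adjusted p = 0.00154). *Acvrl1*, the endothelial type I receptor ALK1, fell from 112 to 95.1 CPM (−0.23, SE 0.07, adjusted p = 0.0412), a call kept only without old replicate 2 or 4 when single libraries were left out (adjusted p up to 0.0956). *Acvrl1* is a gene of endothelial cells. Their marker sum was 1050 to 1773 CPM in young and 614 to 1259 in old aortae, so the groups overlapped. Of the 10 markers 1 was called and none was at 0. The median log2 fold change of these markers was −0.58, and *Erg* alone was positive (0.14, not called). The part of endothelial cells in the *Acvrl1* result was not tested.

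Of the SMAD proteins, the intracellular carriers of the signal, 1 of 8 fell (median −0.08). This was *Smad1*, which serves the bone morphogenetic protein branch, at 32.4 CPM in young and 22.4 in old aortae (log2 fold change −0.53, SE 0.08, adjusted p = 0.00100). Of the SMAD cofactors and ubiquitin ligases, 1 of 12 fell (median 0.03), namely *Skil*, a corepressor that is itself induced by TGF-beta, from 128 to 105 CPM (−0.29, adjusted p = 0.0364). The call on *Skil* was kept only without young replicate 1 or old replicate 1 or 4 when single libraries were left out (adjusted p up to 0.0921).

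The antagonists went both ways, with 1 of 9 higher and 1 lower (median 0.06). *Fstl1*, a secreted glycoprotein that binds ligands of the superfamily, fell from 1697 to 1203 CPM (log2 fold change −0.50, SE 0.09, adjusted p = 0.00343). *Cd109*, a membrane protein that binds TGF-beta, rose from 84.5 to 119.6 CPM (0.50, adjusted p = 0.0443), a call kept only without young replicate 1 or 3 or old replicate 2 when single libraries were left out (adjusted p up to 0.0911).

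Of 20 genes known as TGF-beta targets, 7 fell and none rose (median −0.28), and the 4 with the lowest p encode chains of fibrillar collagen or the enzyme that cross-links them. *Lox*, the enzyme that cross-links collagen and elastin, fell from 327 to 131 CPM (log2 fold change −1.32, SE 0.14, adjusted p = 0.000241). *Col3a1*, *Col1a1* and *Col1a2*, which encode chains of the fibrillar collagens III and I, had log2 fold changes of −0.93, −0.91 and −0.75 (adjusted p = 0.000241, 0.00277 and 0.00282). The groups did not overlap for any of these 4 genes, which kept their calls in all 10 omissions of a single library. These 4 were named for their low p, so little is read from this. The other 3 that fell were *Ccn2*, *Col5a1* and *Loxl2*, which are named after their values were seen, and for each of them the groups overlapped.

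**Figure D5:**
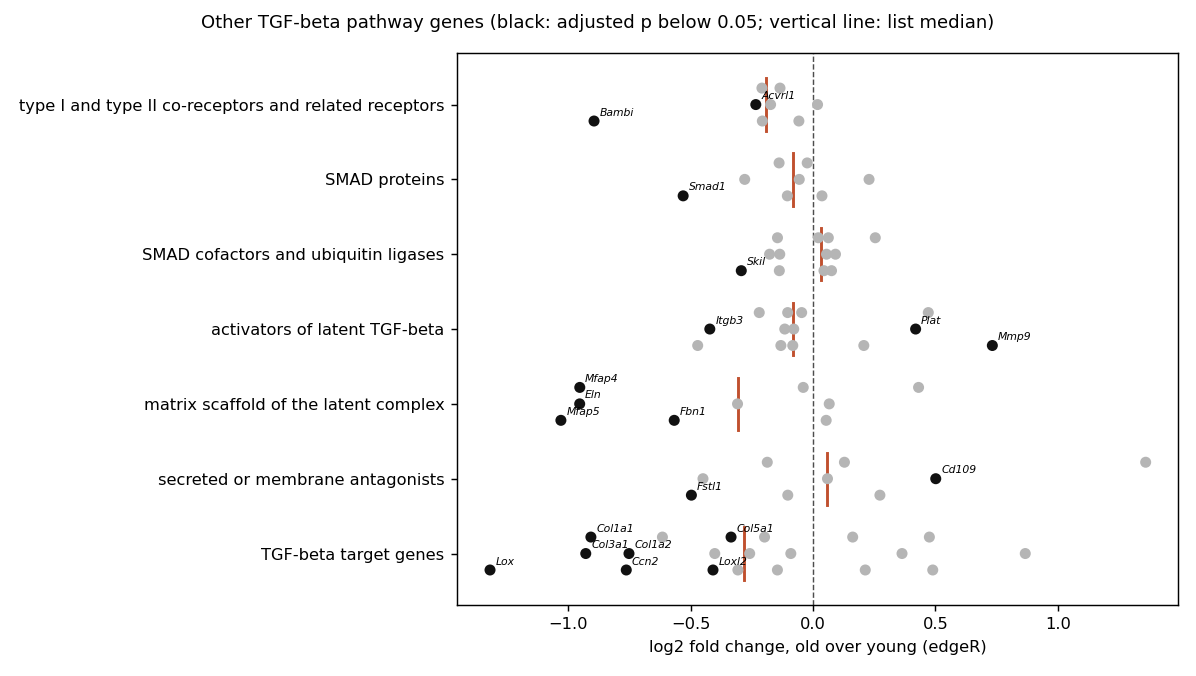
Log2 fold change, old over young aortae, of the 79 tested genes of the 7 pathway lists, with a point for each gene, black where the adjusted p was below 0.05, and a vertical line at the median of each list. The matrix scaffold (median −0.31) and the target genes (−0.28) lie farthest to the left, and *Lox* has the lowest value (−1.32).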

How the data were processed

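RNA was isolated with a miRNeasy kit and libraries were made with a stranded Illumina mRNA kit. The authors removed reads below 35 bases after trimming with fastp 0.20.0, aligned the rest to GRCm38 with STAR 2.7.0f and made the deposited counts per gene with featureCounts of Subread 1.6.4. The paper names GENCODE M22. M21 on the same build was used here for lengths and positions. The strand setting is not given in the sources used here.

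The counts as deposited were filtered with filterByExpr (14614 of 28011 genes with a count) and tested with edgeR 4.0.16 (TMM scaling, robust quasi-likelihood F test, no covariate) under R 4.3.3, with Benjamini-Hochberg adjustment over all genes tested and a threshold of 0.05. Standard errors and 95% intervals come from the F statistic and its degrees of freedom. Ratios were compared by exact two-sided permutation of the age labels. Libraries of 1 group differed by 8.61 to 64.8 times counting error (chi-square over degrees of freedom, 20 pairs), so none was a duplicate.

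The members, lists and tests were chosen with earlier results of these data known, and 1 gene taken out of a pathway list afterwards is not reported here. Named pathway genes are up to 4 called genes per list with the smallest p, and the 3 genes most like each called member by root mean square difference of centred log2 CPM (pseudocount 0.5). The alternatives were DESeq2 1.42.0, limma-voom (limma 3.58.1) with and without quality weights, other scalings and filters, GC and length offsets, the replicate number as a block, a threshold of 0.01 and leaving out every library in turn. The omission of young replicate 1 and old replicate 2 together and the coding transcript length were added after the data were seen. The count test was also run on simulated data.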

Additional observations from a re-analysis of the deposited data

Results flagged for a closer look

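The level of *Tgfbr1* in young replicate 1 was 125 CPM, and the other 4 young aortae held 193 to 217. The gap to the nearest of them was a larger part of the range of the group than Dixon's test allows for 5 samples. Of 20 groups checked (10 genes in 2 age groups) this was the 1 that was set apart. Chance alone sets apart about 5% of groups, so nothing is read from this count.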

How the results depend on the processing

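*Tgfb1* kept its direction and its call at 0.05 in all 22 alternative fits. At a threshold of 0.01 the main edgeR fit lost the call, whereas DESeq2 kept it (adjusted p = 0.00413). The number of members called at 0.05 was 2 in edgeR, 3 in DESeq2, 3 in limma-voom and 4 in limma-voom with quality weights. In edgeR this number was 1 with the replicate number as a block and 1 with the block and the GC and length offsets together. It was 0 at a threshold of 0.01 and 1 to 4 when each library was left out. Without young replicate 1 and old replicate 2 together it was 4. The cause was not tested.

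Over all genes, 1676 calls became 2325 in DESeq2, 1695 in limma-voom and 2643 with quality weights. They became 1286 with the block and the offsets together, 658 at 0.01 and 1132 to 2367 in the omissions. The 20 pathway calls became 31 with quality weights and 12 at 0.01. The log2 fold change of *Tgfbr1* turned to −0.018 with quality weights, −0.058 without young replicate 1 and −0.029 without both libraries (range over the omissions −0.058 to 0.11). That of *Ltbp2* turned to 0.045 without old replicate 2 and 0.0050 without both (−0.16 to 0.045). Over the omissions of 1 library or of both together, the shift of the log2 ratio was −0.014 to 0.24 for *Tgfbr1* to *Tgfbr3*, −0.15 to 0.052 for *Tgfbr1* to *Tgfbr2*, −0.14 to 0.037 for *Ltbp1* to *Ltbp2*, −0.091 to 0.0041 for *Ltbp1* to *Ltbp3* and −0.038 to 0.10 for *Ltbp2* to *Ltbp3*, so each of these turned in sign. No ratio passed an adjusted p of 0.05 in any setting.

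The replicate numbers are not known to pair mice. Deviations of same-numbered aortae correlated by −0.32 to 0.13, and 1 of 5 aortae correlated best with its own number. With the replicate block 1261 genes and 15 pathway genes were called, and the adjusted p of *Ltbp4* was 0.113 (0.0624 with the offsets). The sign-flip test over 5 same-numbered pairs cannot give a p below 0.0625. Each comparison rests on 5 mice per age with 1 library each, and the effect of depth was not tested.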
